A study of Mus musculus with 9 samples.

Results

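The mevalonate pathway genes described here are the 9 genes whose enzymes carry carbon from acetyl-CoA to squalene and to the prenyl diphosphates: *Acat2*, *Hmgcs1*, *Mvk*, *Pmvk*, *Mvd*, *Idi1*, *Fdps*, *Ggps1* and *Fdft1*. They were chosen by name for their place in the pathway, with earlier results of these data known, and were found by matching Ensembl identifiers to mouse gene symbols. They make up 9 of the 54432 genes measured. RNAseq was carried out on RAW 264.7 cells, a mouse macrophage-like line, in 3 groups of 3 libraries. One group was left untreated (control), and the others received 1 mM VLDL-sized or 1 mM chylomicron-sized (CHYL-sized) emulsion particles. These doses are those of the paper's methods, whereas a supplementary figure legend gives a lower dose for the CHYL-sized particles. Both kinds of particle consist of sunflower oil with caseinate as emulsifier and differ in mean size, the CHYL-sized being the larger, and all groups were assigned an exposure of 6 hours. Because the control cells received no particles, effects of the oil and of the emulsifier cannot be told apart, and all libraries come from a single cell line. Each library is a pool of the samples of 1 condition from 1 experiment.

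The mevalonate pathway joins acetyl-CoA units into isoprene units, from which cells build cholesterol, the prenyl groups that anchor small GTPases to membranes, ubiquinone and dolichol. Its genes are classic targets of SREBP-2, a transcription factor that is held in the endoplasmic reticulum when membranes are rich in sterol and released to the nucleus when sterol is low. In macrophages the pathway stands beside the uptake of lipoprotein cholesterol as a source of sterol. After farnesyl diphosphate the pathway branches: squalene synthase sends it to sterols, and geranylgeranyl diphosphate synthase sends it to longer prenyl groups.

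Depth was nearly equal, at 22393893 to 22856792 estimated counts per library. All 9 macrophage markers examined (*Adgre1*, *Cd68*, *Csf1r*, *Itgam*, *Fcgr1*, *Lyz2*, *Spi1*, *Ptprc* and *Mertk*) reached 1 cpm (a count scaled to 1000000 per library), with a summed level of 6130.9 to 6234.5 cpm in untreated cells, 5611.0 to 5842.8 cpm in VLDL-sized and 5753.5 to 5980.6 cpm in CHYL-sized libraries. The 3 T cell, 3 B cell, 3 epithelial, 2 hepatocyte and 1 adipocyte markers stayed under 1 cpm, and the summed levels of 3 fibroblast and 2 endothelial markers were at most 2.53 and 1.8 cpm. In bulk RNA, fewer cells of a type and less RNA per cell cannot be told apart. Replicate 3 stood apart from replicates 1 and 2 in every group: the chi-square of their counts per gene, which counting error alone would put near 1, was 3.38 to 5.03 between replicates 1 and 2, and 11.9 to 15.1 between replicate 3 and either of them.

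All 9 genes had enough counts to be tested, and each differed from control after either particle at an adjusted p under 0.05 in limma-voom. *Acat2*, *Hmgcs1*, *Mvk*, *Pmvk*, *Mvd*, *Idi1*, *Fdps* and *Fdft1* fell, and *Ggps1* rose. Of the 12637 genes tested, 17.9% were called lower and 17.8% higher after VLDL-sized particles, and 13.0% lower and 12.7% higher after CHYL-sized particles. For all 9 genes the libraries of control and treated cells did not overlap, with the treated libraries lower for 8 genes and higher for *Ggps1*. Over all genes tested, treated libraries lay wholly below control for 23.7% and wholly above for 23.7% with VLDL-sized particles, and for 20.9% and 20.8% with CHYL-sized particles. Both comparisons use the same control libraries, so they are not independent of each other.

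Promoter stretches are shown for 5 of the genes because the members moved together with 1 exception, and the sequences let the lowered genes be set beside the raised one. RefSeq promoter windows, from 250 bases before to 50 bases after the transcription start on GRCm38.p6, were matched by symbol for 7 of the 9 genes, with 2 windows for *Pmvk*. *Fdps* and *Fdft1* were not matched. The 150 bases before the start are printed 5′ to 3′ on the gene's own strand. *Hmgcs1* is at chr13:119690201-119690350 (plus strand), *Acat2* at chr17:12960726-12960875 (minus strand), *Mvk* at chr5:114444119-114444268 (plus strand), *Idi1* at chr13:8885456-8885605 (plus strand) and *Ggps1* at chr13:14063489-14063638 (minus strand). By the GENCODE coordinates given below, *Idi1* begins at 8885501 and *Acat2*, on the minus strand, at 12960747. Part of the stretch of each of these genes thus lies within the GENCODE gene. For *Idi1* that part holds the marked CCAAT matches. Capitals mark matches, on either strand, to the sterol regulatory element motifs TCACNCCA and CACNCCAC and to the CCAAT box, where N is any base.
Hmgcs1: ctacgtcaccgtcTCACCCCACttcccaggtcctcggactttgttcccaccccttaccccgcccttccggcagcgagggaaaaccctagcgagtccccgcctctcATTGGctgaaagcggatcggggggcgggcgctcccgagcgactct
Acat2: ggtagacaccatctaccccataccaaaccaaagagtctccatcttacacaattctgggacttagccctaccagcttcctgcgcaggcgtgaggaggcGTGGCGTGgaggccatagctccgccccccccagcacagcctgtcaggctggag
Mvk: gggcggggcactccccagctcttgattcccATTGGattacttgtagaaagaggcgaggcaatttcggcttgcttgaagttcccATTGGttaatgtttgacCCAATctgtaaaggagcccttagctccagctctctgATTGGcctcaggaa
Idi1: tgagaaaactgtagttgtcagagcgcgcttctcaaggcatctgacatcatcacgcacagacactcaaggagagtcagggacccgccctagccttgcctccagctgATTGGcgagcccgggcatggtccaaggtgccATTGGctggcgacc
Ggps1: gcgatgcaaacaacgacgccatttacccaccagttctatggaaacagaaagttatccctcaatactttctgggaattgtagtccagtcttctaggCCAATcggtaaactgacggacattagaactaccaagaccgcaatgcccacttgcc

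The sterol regulatory element is the DNA motif that SREBP-2 binds, and the CCAAT box is bound by NF-Y, a factor that often sits beside it in promoters of this pathway. In the whole windows, TCACNCCA was present in 1 of the 7 genes (*Hmgcs1*) and in 4.36% of all 32817 RefSeq promoters. CACNCCAC was present in 2 of 7 (*Hmgcs1* and *Acat2*) and in 6.24% of all promoters. The motifs share letters, and in *Hmgcs1* they match overlapping bases, -137 to -130 and -136 to -129 from the start. Either motif was present in 9.18% of all promoters.

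CCAAT was present in 6 of the 7 genes, all but *Acat2*, against 37.4% of all promoters. *Mvk* held 5 matches and *Ggps1*, the raised gene, held 3. The GC box GGGCGG was present in 5 of 7 genes (*Acat2*, *Hmgcs1*, *Mvk*, *Mvd* and *Idi1*) against 35.6% of all promoters, and the E-box CACGTG in 0 of 7 against 7.15%. Restricting the search to the bases before the start left each of these member counts as it was. A match describes letters in this window and not a bound site.

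**Figure D1:**
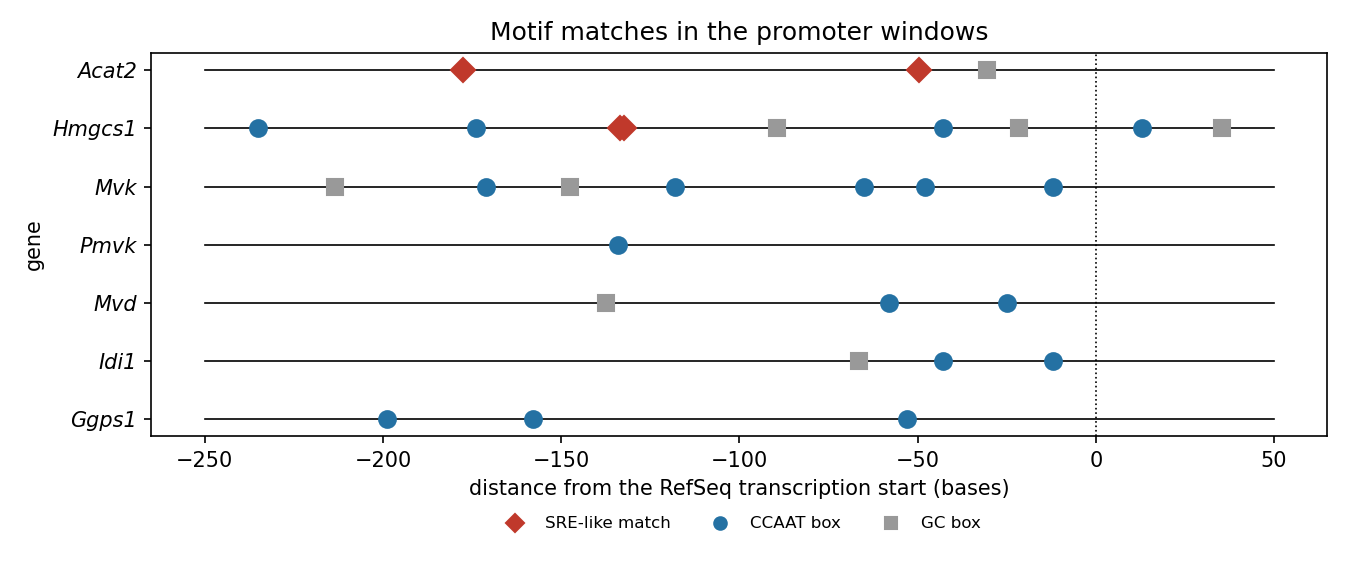
Motif matches in the promoter windows of the 7 genes with a RefSeq entry. The horizontal axis is the distance from the transcription start in bases, and symbols mark the centre of each match on either strand. Matches to the sterol regulatory element motifs are present in *Acat2* and *Hmgcs1* only, and CCAAT boxes in all of the 7 genes but *Acat2*. For *Pmvk* the first of its 2 windows is drawn, and the second held no match.

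The first step is catalysed by *Acat2*, the cytosolic thiolase that joins acetyl-CoA units to acetoacetyl-CoA (ENSMUSG00000023832, GRCm38 chromosome 17, 12942890 to 12960747, minus strand). Its level was 118.6, 118.4 and 113.2 cpm in control replicates 1, 2 and 3. It was 28.1, 32.1 and 47.1 cpm after VLDL-sized particles and 35.9, 37.0 and 50.2 cpm after CHYL-sized particles. Every treated library thus lay below every control library, and the third replicate was the highest of each treated group. The log2 fold change was -1.74 (SE 0.16, limma adjusted p = 1.9e-05) with VLDL-sized and -1.52 (SE 0.16, limma adjusted p = 6.7e-05) with CHYL-sized particles, which is 3.34-fold and 2.88-fold lower.

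*Hmgcs1* encodes the cytosolic synthase that adds a further acetyl-CoA to give HMG-CoA (ENSMUSG00000093930, chromosome 13, 119690379 to 119708260, plus strand). It fell the most of the 9 genes with either particle. Control libraries held 314.2, 327.1 and 269.0 cpm. VLDL-sized libraries held 70.0, 73.2 and 52.5 cpm, and CHYL-sized libraries 84.4, 78.7 and 57.0 cpm. The highest treated library was far below the lowest control, and replicate 3 was the lowest in each of the 3 groups. The log2 fold change was -2.23 (SE 0.15, limma adjusted p = 2.7e-06), or 4.68-fold lower, with VLDL-sized particles and -2.06 (SE 0.15, limma adjusted p = 6.6e-06), or 4.18-fold lower, with CHYL-sized particles. Ordered from the most lowered gene, *Hmgcs1* ranked 31 of 12637 with VLDL-sized and 22 with CHYL-sized particles.

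The 3 enzymes that turn mevalonate into isopentenyl diphosphate all fell, with the decarboxylase falling further than the kinases. *Mvk*, mevalonate kinase (ENSMUSG00000041939, chromosome 5, 114444269 to 114460591, plus strand), was at 34.2, 35.7 and 31.0 cpm in untreated cells, 16.6, 16.0 and 20.4 cpm after VLDL-sized and 16.9, 18.1 and 19.7 cpm after CHYL-sized particles. Its libraries did not overlap with control, and its level after treatment was 52.6% and 54.2% of the control mean. The change was -0.93 on the log2 scale (SE 0.10, limma adjusted p = 4.9e-05) and -0.88 (SE 0.10, limma adjusted p = 0.00011).

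*Pmvk*, which adds the next phosphate (ENSMUSG00000027952, chromosome 3, 89454541 to 89469013, plus strand), was at 42.4, 47.2 and 39.7 cpm in control. It was at 23.9, 23.0 and 29.9 cpm after VLDL-sized and 24.1, 24.1 and 31.9 cpm after CHYL-sized particles. Replicate 3 was both the lowest control and the highest treated library, so that the gap between groups was narrowest there. In log2 units the fall was -0.76 (SE 0.12, limma adjusted p = 0.00087) and -0.70 (SE 0.12, limma adjusted p = 0.0021).

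*Mvd*, the decarboxylase that yields isopentenyl diphosphate (ENSMUSG00000006517, chromosome 8, 122433601 to 122443422, minus strand), was at 80.1, 79.3 and 62.8 cpm in control. It was at 20.1, 18.8 and 28.2 cpm after VLDL-sized and 20.9, 22.5 and 27.1 cpm after CHYL-sized particles. The groups were wide apart, with treated means of 30.2% and 31.7% of control. This gave a log2 fold change of -1.74 (SE 0.15, limma adjusted p = 1.4e-05) and -1.66 (SE 0.15, limma adjusted p = 2.8e-05).

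*Idi1* encodes the isomerase that turns isopentenyl into dimethylallyl diphosphate (ENSMUSG00000058258, chromosome 13, 8885501 to 8892451, plus strand). Control libraries held 365.1, 360.7 and 332.9 cpm. VLDL-sized libraries held 119.4, 127.4 and 187.0 cpm, and CHYL-sized libraries 132.1, 135.1 and 183.8 cpm. Replicate 3 of both treated groups stood well above its partners but still far below control. Its log2 fold change was -1.32 (SE 0.16, limma adjusted p = 0.00013) and -1.25 (SE 0.16, limma adjusted p = 0.00031).

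*Fdps*, which condenses these units to geranyl and farnesyl diphosphate (ENSMUSG00000059743, chromosome 3, 89093588 to 89101959, minus strand), showed the smallest fall of the 8 lowered genes. It was at 448.1, 444.8 and 414.8 cpm in untreated cells, 260.2, 265.9 and 319.8 cpm after VLDL-sized and 258.6, 267.3 and 305.0 cpm after CHYL-sized particles. Groups did not overlap, and the treated means were 64.7% and 63.5% of control. On the log2 scale the change was -0.63 (SE 0.09, limma adjusted p = 0.00024) and -0.66 (SE 0.09, limma adjusted p = 0.00031). *Fdps* ranked 909 of 12637 from the most lowered gene with VLDL-sized and 556 with CHYL-sized particles.

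**Figure D2:**
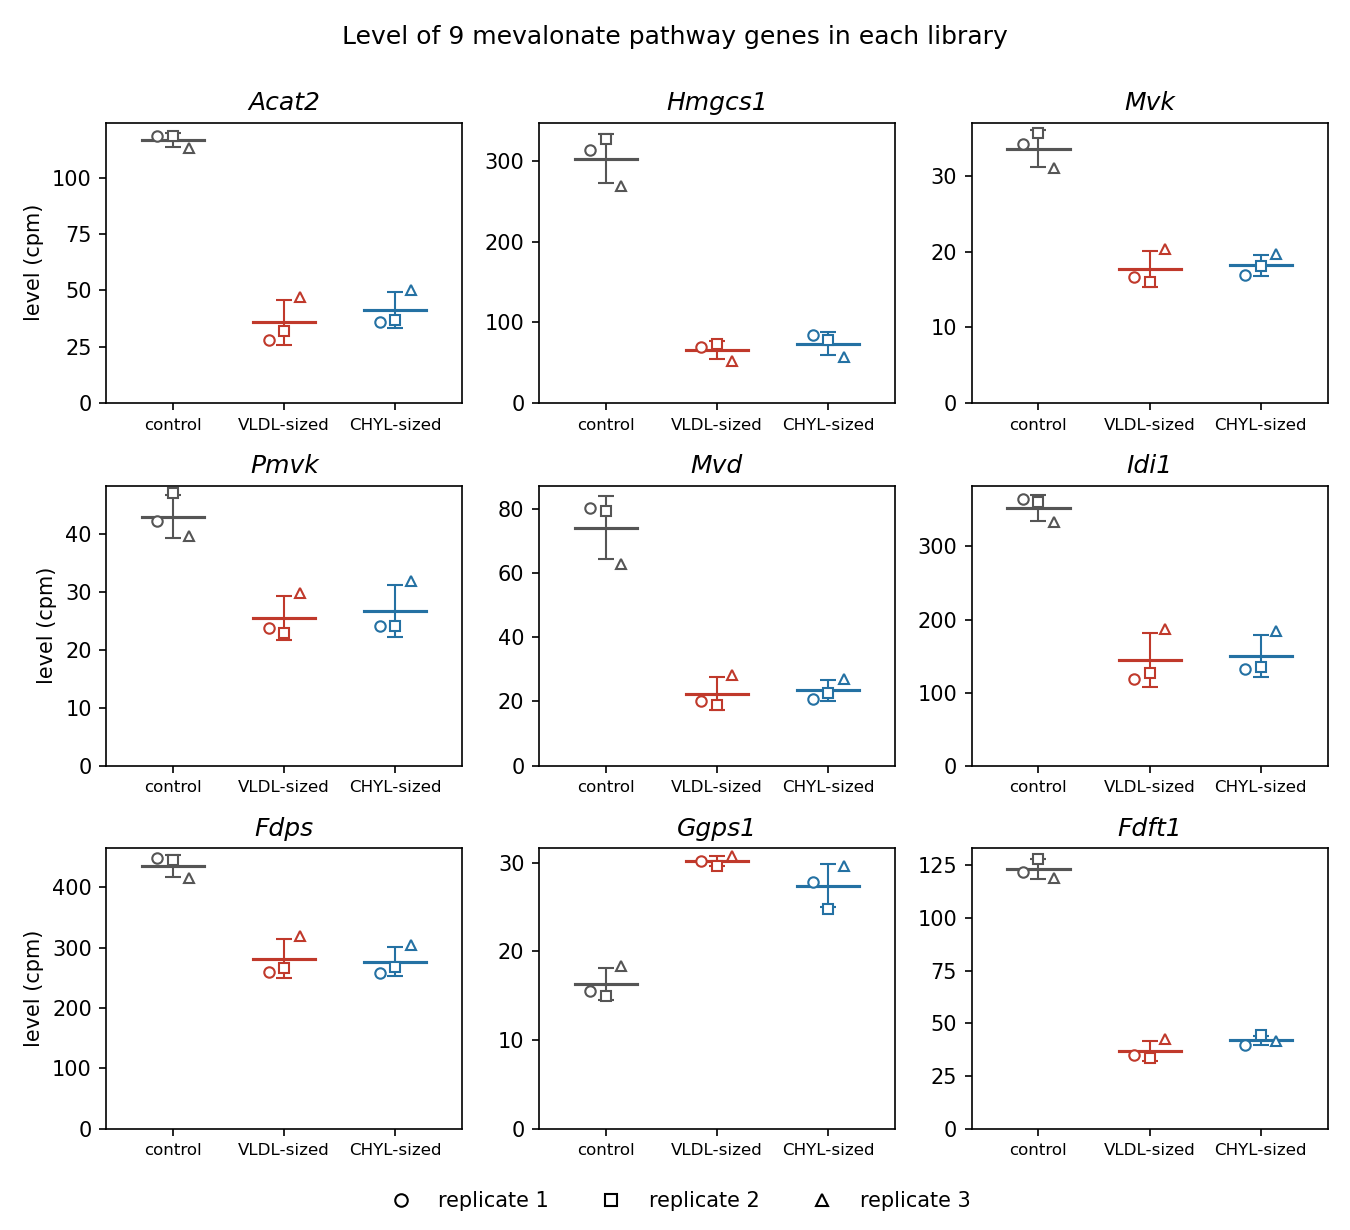
Level of each of the 9 genes in cpm, on linear axes that start at 0, in control, VLDL-sized and CHYL-sized libraries. Circles, squares and triangles are replicates 1, 2 and 3, the horizontal line is the group mean and the bar its SD (n = 3). All treated libraries lie below all control libraries for 8 genes and above them for *Ggps1*.

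At the branch after farnesyl diphosphate the genes went in opposite directions. *Fdft1*, squalene synthase, commits farnesyl diphosphate to sterols (ENSMUSG00000021273, chromosome 14, 63145150 to 63179578, minus strand). It was at 122.0, 128.3 and 119.2 cpm in untreated cells, 35.0, 33.6 and 42.4 cpm after VLDL-sized and 39.8, 44.4 and 41.5 cpm after CHYL-sized particles. Its control libraries lay close together, as did its CHYL-sized ones, while VLDL-sized replicate 3 stood above its partners. Treated and control libraries did not overlap, and its adjusted p was the smallest of the 9 genes. The log2 fold change was -1.74 (SE 0.08, limma adjusted p = 1.9e-07) and -1.56 (SE 0.08, limma adjusted p = 4.5e-07), or 3.34-fold and 2.94-fold lower.

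*Ggps1* encodes the synthase that extends farnesyl to geranylgeranyl diphosphate, the donor for prenylation of Rab proteins (ENSMUSG00000021302, chromosome 13, 14050659 to 14063488, minus strand). Control libraries held 15.5, 15.0 and 18.3 cpm. VLDL-sized libraries held 30.2, 29.6 and 30.8 cpm, and CHYL-sized libraries 27.8, 24.8 and 29.6 cpm. Every treated library was above every control, and the VLDL-sized libraries lay close together. The log2 fold change was 0.90 (SE 0.09, limma adjusted p = 3.8e-05) and 0.76 (SE 0.09, limma adjusted p = 0.00022), or 1.86-fold and 1.69-fold higher.

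*Ggps1* shares 257 exonic bases with *Arid4b*, a chromatin-associated gene on the opposite strand, named here after its values were seen. *Arid4b* was at 26.5, 26.3 and 24.2 cpm in untreated cells, 49.5, 54.9 and 45.3 cpm after VLDL-sized and 45.4, 40.3 and 44.6 cpm after CHYL-sized particles. It rose as well, with a log2 fold change of 0.96 (SE 0.08, limma adjusted p = 1.4e-05) and 0.76 (SE 0.09, limma adjusted p = 0.00012). Whether the counting used strand is not given in the sources used here, and the part of shared reads in the rise of *Ggps1* was not tested. *Fdft1* shares 774 exonic bases with *Ctsb*, which encodes the protease cathepsin B, on the opposite strand, also named after its values were seen. *Ctsb* stood at 4552.9 ± 277.2 cpm in untreated cells, with a log2 fold change of 0.14 (limma adjusted p = 0.13) with VLDL-sized and 0.06 (limma adjusted p = 0.55) with CHYL-sized particles.

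Within a library, the branch genes can be set against each other. The ratio of *Ggps1* to *Fdft1* cpm was 0.127, 0.117 and 0.154 in control, 0.864, 0.88 and 0.725 after VLDL-sized and 0.698, 0.559 and 0.715 after CHYL-sized particles. The ratio of *Ggps1* to *Fdps* was 0.0336 to 0.0442 in control and 0.0929 to 0.116 in treated libraries. The ratio of *Hmgcs1* to *Fdps*, near the entry and the middle of the pathway, was 0.648 to 0.735 in control and 0.164 to 0.326 in treated libraries. These ratios are not corrected for transcript length, so only their change between libraries is meaningful, and they were given no test of their own.

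The sum of the 9 genes was 1540.2, 1556.4 and 1401.0 cpm in untreated cells, 603.5, 619.5 and 758.1 cpm after VLDL-sized and 640.5, 652.1 and 745.8 cpm after CHYL-sized particles. In control cells the 9 genes took 0.143% to 0.163% of all estimated counts, and in treated cells 0.0591% to 0.073%. The median log2 fold change of the 9 genes was -1.32 with VLDL-sized and -1.25 with CHYL-sized particles, beside -0.0003 and 0.0013 over all 12637 genes.

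**Figure D3:**
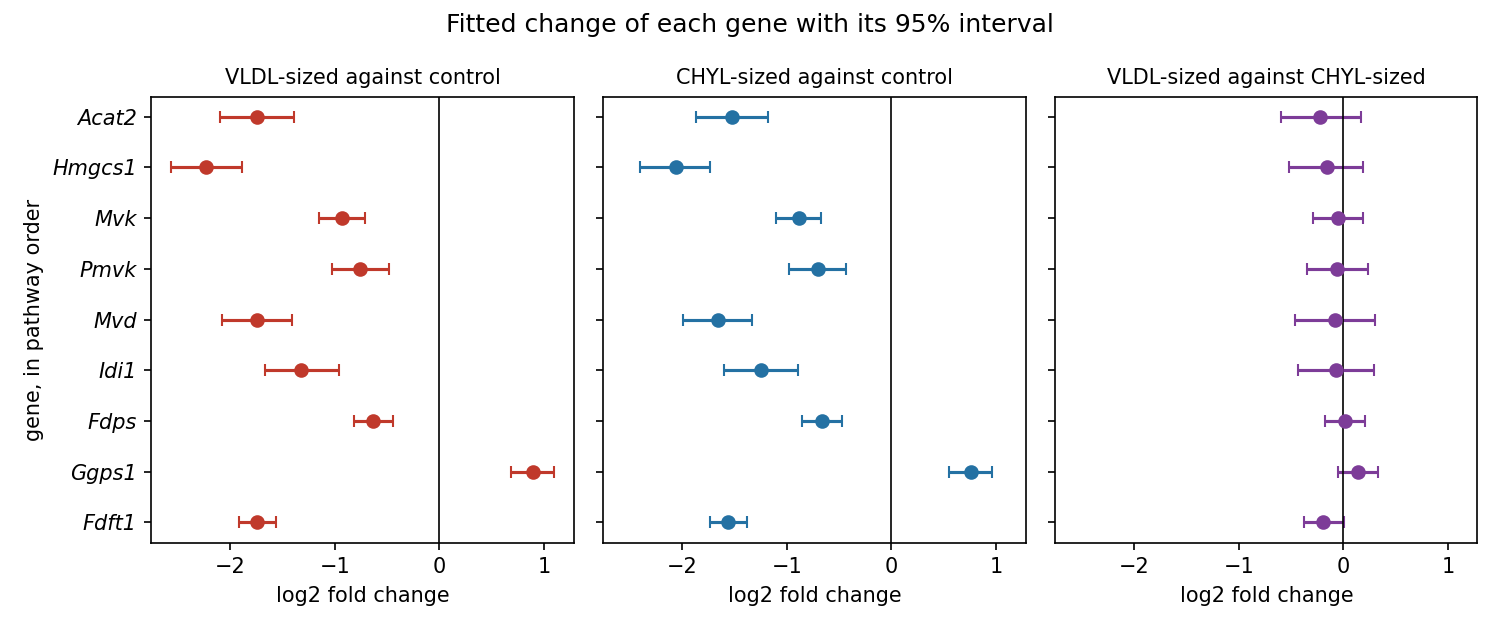
Fitted log2 fold change of each gene with its 95% interval, for each particle against control and for VLDL-sized against CHYL-sized particles. Against control the intervals of 8 genes lie below 0 and that of *Ggps1* above 0, whereas all 9 intervals include 0 between the particles.

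To order the genes by level, cpm was divided by transcript length and is given as cpm per kilobase of the median protein-coding transcript. In control cells *Fdps* (488.1 ± 20.5) and *Idi1* (476.3 ± 23.5) were highest, and their libraries overlapped. They were followed by *Hmgcs1* (93.5 ± 9.4) and *Acat2* (60.4 ± 1.59), each separate from its neighbours. *Mvd* (42.2 ± 5.55), *Pmvk* (40.4 ± 3.54) and *Fdft1* (37.6 ± 1.43) overlapped as neighbours in this order. *Mvk* (32.0 ± 2.29) and *Ggps1* (20.2 ± 2.26, all SD, n = 3) were the lowest.

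After treatment the order on this scale changed below *Fdps* and *Idi1*. *Ggps1* went from rank 9 in control to rank 3 in both treated groups, at 37.5 ± 0.748 with VLDL-sized and 34.1 ± 3.01 cpm per kilobase with CHYL-sized particles. *Fdft1* went from rank 7 to rank 9, at 11.3 ± 1.45 and 12.8 ± 0.707 cpm per kilobase. The order and the gaps depend on the length used. With the union of all exons *Ggps1* was at rank 9 in all 3 groups. It was at 3.45 ± 0.385 in control and 6.39 ± 0.127 cpm per kilobase with VLDL-sized particles. This is because its exons add up to 4721 bases and its median coding transcript to 804. On the union length, control *Fdps* (103.6) and *Idi1* (100.7) lay nearer to *Hmgcs1* (66.0). *Fdft1* then went from rank 6 in control to rank 7 in both treated groups.

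VLDL-sized and CHYL-sized particles were compared directly to see whether the kind of particle mattered for these genes. None of the 9 genes passed, and among all 12637 genes 0 (0.0%) were called by limma-voom, with 813 at an unadjusted p under 0.05. edgeR also called 0 genes, DESeq2 called 24 and limma-voom with a replicate block 147. *Fdft1* came nearest among the 9, with a log2 difference of -0.19 (95% interval -0.38 to 0.01, limma adjusted p = 0.79). Without replicate 3 of all groups, a choice made after seeing the data, it was -0.29 and passed (limma adjusted p = 0.046), while 257 of all genes then passed.

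For *Hmgcs1* the log2 difference between VLDL-sized and CHYL-sized particles was -0.16 (95% interval -0.52 to 0.19), for *Acat2* -0.22 (-0.60 to 0.17) and for *Ggps1* 0.14 (-0.05 to 0.33). *Fdps* gave the difference nearest to 0, at 0.02 (-0.17 to 0.21), and *Mvk*, *Pmvk*, *Mvd* and *Idi1* lay between -0.08 and -0.05. The libraries of the particles overlapped for all 9 genes. The share of all genes with such an overlap was not worked out, so this count is a description only.

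The difference between same-numbered treated and control libraries was not the same for each number. With VLDL-sized particles the log2 difference between same-numbered libraries was -1.99, -2.07 and -1.15 for *Mvd*, and -1.61, -1.50 and -0.83 for *Idi1*, in replicates 1, 2 and 3. For *Pmvk* with CHYL-sized particles it was -0.81, -0.97 and -0.32. In replicate 3 the change was the smallest of the 3 for 8 of the 9 genes with either particle, *Ggps1* included, although for *Fdft1* with CHYL-sized particles replicates 2 and 3 were at -1.53 and -1.52. Nothing in the labels ties the numbers to experiments, so the same-numbered differences are a description only, for both particles. Among all genes called lower, replicate 3 gave the smallest change for 28.3% with VLDL-sized and 20.1% with CHYL-sized particles. It gave the largest change for 46.3% and 50.9% of them. That set holds no raised gene such as *Ggps1*. The cause was not tested. Without replicate 3 of all groups, a choice made after seeing the data, the same 8 genes fell and *Ggps1* rose with either particle, the median moved to -1.56 and -1.44, and *Mvd* went to -2.03 and -1.88.

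*Hmgcs1* was the exception, with its largest fall in replicate 3. The differences were -2.17, -2.16 and -2.36 with VLDL-sized and -1.90, -2.05 and -2.24 with CHYL-sized particles. Within the VLDL-sized group, replicate 3 was lower than the mean of replicates 1 and 2 for *Hmgcs1* (log2 difference -0.45) but higher for *Acat2* (0.65), *Idi1* (0.60) and *Mvd* (0.54). In other sterol genes both behaviours were seen. Replicate 3 was the highest VLDL-sized library for *Lss* (0.59), *Cyp51* (0.55), *Nsdhl* (0.39), *Dhcr7* (0.39), *Hsd17b7* (0.18), *Msmo1* (0.14), *Ebp* (0.13) and *Sc5d* (0.11). It was the lowest for *Sqle* (-0.22), *Srebf1* (-0.19), *Stard4* (-0.16), *Insig1* (-0.11) and *Tm7sf2* (-0.09). Over all genes tested it was the highest VLDL-sized library for 39.1% and the lowest for 39.5%.

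Replicate 3 was the highest VLDL-sized library for 8 of the 9 genes and the highest CHYL-sized library for 7, while over all genes tested it was the highest for 39.1% and 38.2%. In control it was the lowest for 8 of the 9 genes, *Ggps1* being the highest there, against 39.9% of all genes.

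**Figure D4:**
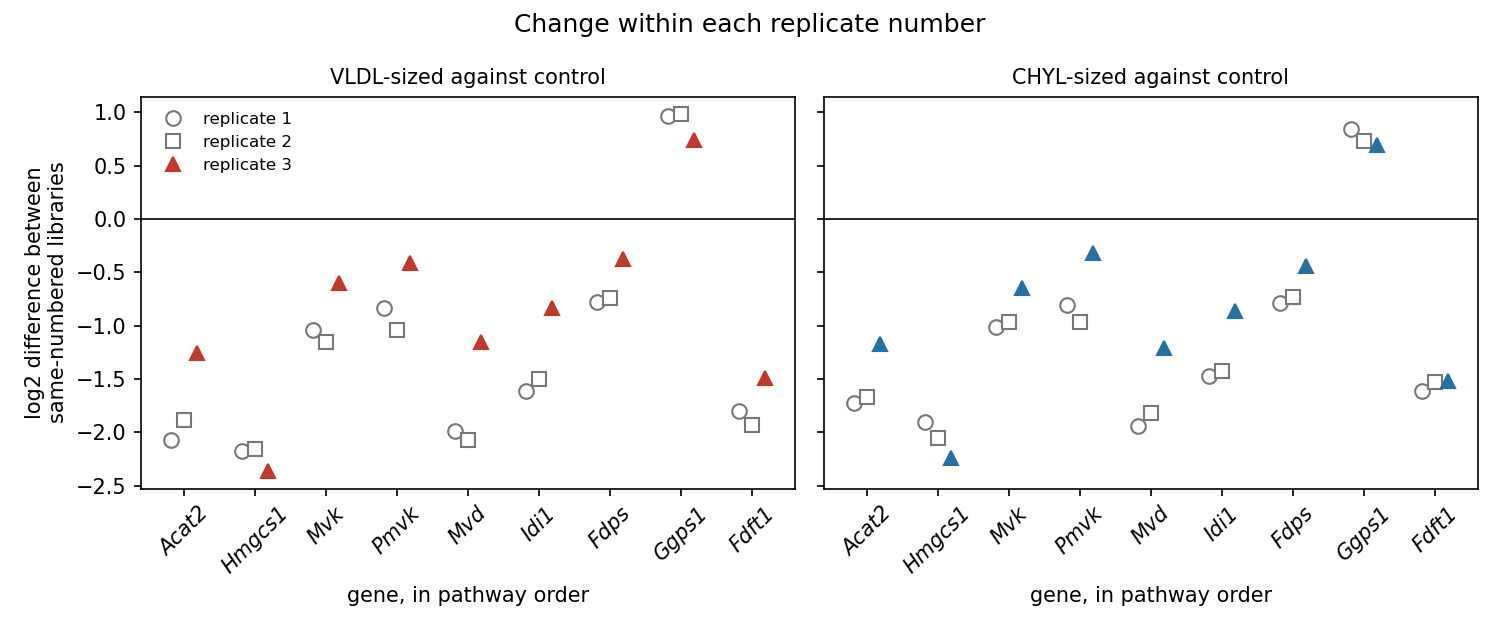
Log2 difference in cpm between same-numbered treated and control libraries for each gene, with VLDL-sized particles on the left and CHYL-sized particles on the right. Filled triangles are replicate 3, which gave the smallest change for 8 of the 9 genes with either particle and the largest for *Hmgcs1*.

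As a description over the 9 libraries, which share depth and the 3 groups, the Pearson correlation of each gene's log2 cpm with the mean of the other 8 genes was 0.88 for *Hmgcs1*, 0.97 to 1.0 for *Acat2*, *Mvk*, *Pmvk*, *Mvd*, *Idi1*, *Fdps* and *Fdft1*, and -0.94 for *Ggps1*. After the group means were subtracted, so that only the spread between replicates remained, it was 0.92 to 0.98 for *Acat2*, *Mvk*, *Pmvk*, *Mvd*, *Idi1* and *Fdps*. On that scale it was 0.69 for *Fdft1*, -0.05 for *Ggps1* and -0.83 for *Hmgcs1*.

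The 10 other genes with the pattern most like the mean of the members were sought among 8659 tested genes with at least 10 cpm, by Pearson correlation over the 9 libraries. They were *Cyp51* (0.998), *Lss* (0.997), *Dhcr7* (0.996), *Fads2* (0.995), *Fads1* (0.992), *Abcb8* (0.992), *Scarb1* (0.988), *Recql4* (0.987), *Sc5d* (0.987) and *Cers4* (0.986). *Cyp51*, *Lss*, *Dhcr7* and *Sc5d* encode enzymes of the later sterol pathway, *Fads1* and *Fads2* fatty acid desaturases and *Scarb1* a lipoprotein receptor. *Fads2* fell from 192.5 ± 4.62 to 127.4 ± 13.3 cpm with VLDL-sized and 124.9 ± 11.3 cpm with CHYL-sized particles, and *Cers4*, a ceramide synthase, from 37.9 ± 1.6 to 18.5 ± 1.2 and 20.1 ± 0.652 cpm. With group means subtracted, 5 of these 10 genes remained among the first 10.

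The genes of the sterol steps after squalene fell as well. Of 10 genes in this list 10 fell with VLDL-sized and 9 with CHYL-sized particles, beside 17.9% and 13.0% of all genes. The median log2 fold changes of the list were -1.22 and -1.19. *Cyp51*, lanosterol demethylase, fell the most, from 198.7 ± 9.99 cpm to 64.0 ± 15.1 and 63.7 ± 10.3 cpm (log2 -1.66 and -1.65). *Msmo1* (-1.58 and -1.53), *Lss* (-1.45 and -1.41) and *Sqle* (-1.44 and -1.34), the epoxidase that follows *Fdft1*, came next. *Ebp* was the least changed, at -0.21 (limma adjusted p = 0.041) and -0.16 (limma adjusted p = 0.12).

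Among 9 genes of SREBP regulation and sterol uptake, 5 fell with either particle, beside 17.9% and 13.0% of all genes. In the same list 2 rose with VLDL-sized and 1 with CHYL-sized particles. These rises were near the background of 17.8% and 12.7% of all genes. The median log2 fold change was -0.28 and -0.24. *Insig1*, a retention protein of the SREBP complex, fell from 152.3 ± 7.88 cpm to 34.6 ± 1.53 and 38.0 ± 1.3 cpm (log2 -2.14 and -2.0), close in size to *Hmgcs1*. *Srebf1* (-1.37 and -1.19), which encodes SREBP-1, the sterol carrier gene *Stard4* (-1.31 and -1.23), *Srebf2* (-0.69 and -0.61), which encodes SREBP-2, and the protease gene *Mbtps1* (-0.28 and -0.24) fell too. *Insig2*, the related retention protein, rose (0.26 and 0.26), and *Mbtps2*, a protease of SREBP release, rose with VLDL-sized particles (0.32) but did not pass with CHYL-sized ones (0.20, limma adjusted p = 0.051). *Scap* (-0.14 and -0.10), the escort of SREBP, and *Mylip* (0.15 and 0.20), a ubiquitin ligase, passed with neither.

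Of 5 genes that supply cytosolic acetyl-CoA or use it for fatty acids, 4 fell with either particle, beside 17.9% and 13.0% of all genes. The medians were -0.79 with VLDL-sized and -0.80 with CHYL-sized particles. *Fasn*, fatty acid synthase, went from 535.9 ± 35.2 cpm to 234.8 ± 14.9 and 251.5 ± 12.0 cpm (log2 -1.19 and -1.09). *Acaca* (-0.87 and -0.91), *Acly* (-0.79 and -0.80), the citrate lyase that provides acetyl-CoA, and *Slc25a1* (-0.31 and -0.35), the citrate carrier, were the others. *Acss2*, which makes acetyl-CoA from acetate, did not pass (-0.03 and -0.17).

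A list of 16 genes covered the use of farnesyl or geranylgeranyl diphosphate and the handling of proteins that carry prenyl groups. Of these genes, 3 rose and 1 fell with VLDL-sized particles, beside 17.8% and 17.9% of all genes. With CHYL-sized particles 3 rose and 2 fell, beside 12.7% and 13.0% of all genes, so that these counts were near the background. The medians were 0.04 and 0.03. *Nus1*, a subunit of the dolichol-forming prenyltransferase, rose from 126.1 ± 4.05 to 162.3 ± 2.63 and 156.9 ± 3.13 cpm (log2 0.36 and 0.32). *Chm*, the Rab escort protein, rose by 0.23 and 0.24 on the log2 scale and *Zmpste24*, a protease of prenylated lamin A, by 0.19 and 0.15. *Fntb*, the farnesyltransferase beta subunit, fell (-0.33 and -0.41), and *Fnta*, its partner, fell with CHYL-sized particles (-0.20) but did not pass with VLDL-sized ones (-0.08, limma adjusted p = 0.27).

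**Figure D5:**
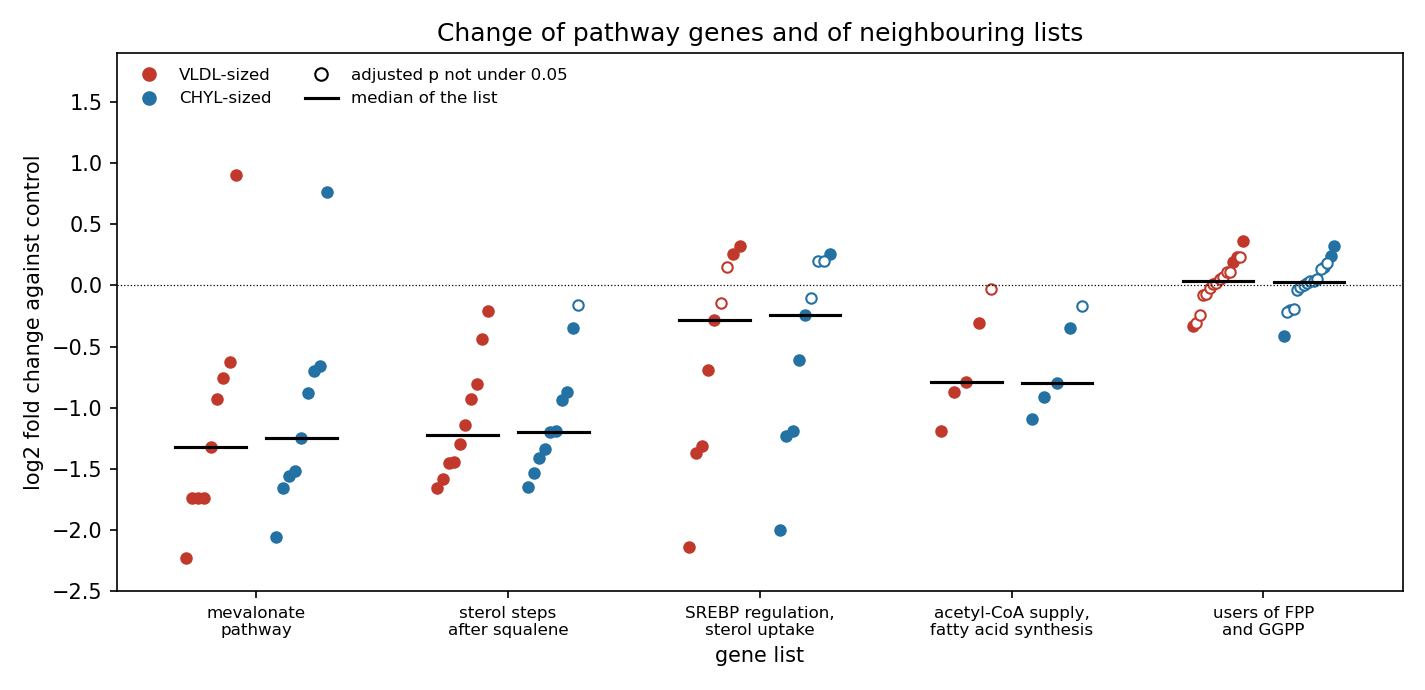
Log2 fold change against control of the 9 mevalonate pathway genes and of the tested genes in 4 related lists, with VLDL-sized particles in red and CHYL-sized particles in blue. Open circles did not reach an adjusted p under 0.05, and black lines are list medians. The medians of the pathway genes and the sterol steps lie between -1.32 and -1.19. Those of the list labelled users of farnesyl (FPP) and geranylgeranyl diphosphate (GGPP) lie at 0.04 and 0.03. That list also holds genes that handle proteins with prenyl groups.

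Of 3 close relatives of the members that are not members themselves, 1 could be tested, and it passed with neither particle. *Acat1*, the mitochondrial thiolase, was at 84.1 ± 6.06 cpm in untreated cells, 81.1 ± 2.66 cpm with VLDL-sized and 83.9 ± 4.7 cpm with CHYL-sized particles (limma adjusted p = 0.58 and 0.99). *Idi2* and *Acat3* stayed at or below 2.0 and 9.87 counts and were not tested. *Mmab*, a neighbour of *Mvk* that acts in cobalamin metabolism, fell with it, from 14.5 ± 0.861 to 8.42 ± 1.59 and 8.45 ± 1.37 cpm (log2 -0.80, limma adjusted p = 0.0013, and -0.79, limma adjusted p = 0.002).

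Several members have near-identical copies with which reads could be shared. *Acat2* and *Acat3* were 97.7% identical over 1477 bases. *Gm13502*, a processed pseudogene, was 100% identical to *Idi1* over 684 bases and held 44.7 counts in control replicate 2, 29.1 in VLDL-sized replicate 1 and 0 elsewhere, against 8682.0 for *Idi1* in its highest library. *Fdps* matched 7 genes, among them *Gm43738*, which shares 1124 exonic bases with it on the same strand. *Fdft1* matched *Gm6781* and *Ggps1* matched *Gm5630*, and no copy of these 3 genes held more than 4.89 counts in a library. The counts of *Idi1*, *Fdps* and the other genes with such copies are uncertain to the extent that the authors' counting divided reads among them.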

How the data were processed

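RNA of 9 libraries of RAW 264.7 cells was sequenced in 3 groups of 3, taken from the sample labels. For each gene the authors deposited an estimated count from Salmon 0.14.1, run on GENCODE transcripts of GRCm38.p6 and summarized with tximport. According to the methods these were scaled for length and depth, which the values do not show: of values above 10, 67.3% were within 0.001 of a whole number. The table was used as deposited. Symbols were found for 54346 of 54432 identifiers, and coordinates and lengths came from another GENCODE release of the same build.

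Genes with more than 10 estimated counts in at least 3 libraries (12637, holding 99.9% of all counts) entered limma 3.58.1, scaled by TMM (edgeR 4.0.16, R 4.3.3) with voom weights, and p-values were adjusted by Benjamini-Hochberg over all genes, in 1 model of 9 libraries. A gene was called at an adjusted p under 0.05. Levels are TMM-scaled cpm, and errors are SD over 3 libraries or the SE of the fit. Depth was 22393893 to 22856792 counts per library. Triplicates are described as biological, but nothing in the labels ties numbers to experiments, so p-values measure the spread between these libraries.

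The members and lists were chosen with earlier results of these data known. A few genes of the lists are not reported here and are in none of the counts or medians of the lists. Named genes are the 9 members, the genes of the lists and the 10 genes most correlated with the members' mean z score. Deviations from the group mean were correlated across genes between libraries, with a rule that every same-numbered pair exceed 0.1. Control and VLDL-sized libraries met this rule (0.138, 0.132 and 0.293), and CHYL-sized libraries did not (0.124, 0.0684 and 0.338). Libraries of unlike number could also exceed 0.1. Control replicate 1 gave 0.116 with VLDL-sized replicate 2 and 0.155 with CHYL-sized replicate 2. The rule therefore does not settle whether replicates 1 and 2 are paired, and the replicate block is an alternative.

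The steps were tested on simulated data with 100 changed genes of each size per comparison, taken from genes with a mean above 50 counts. Genes changed by 1 on the log2 scale were recovered at 98% for VLDL-sized against control (12571 genes, 14 false calls). For CHYL-sized against control the recovery was 100% (12547 genes, 9 false calls). The simulated libraries had the same dispersion for every gene and no shift of replicate 3, so these figures need not hold for the real libraries. Alternatives were edgeR's quasi-likelihood test and DESeq2 1.42.0 on rounded counts, limma-trend, library size only, upper-quartile factors, no filter, a stricter filter (more than 50 counts), a replicate block, a fit of only the groups compared and each library left out. Leaving out replicate 3 of all groups was added after seeing the data. A search of protein sequences for a motif was planned and not run.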

Additional observations from a re-analysis of the deposited data

How the results depend on the processing

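Against control, each of the 9 genes kept its direction and its call under all 16 alternatives, for both particles (144 of 144 values each), including library size only, which moved the median of all genes by -0.094 and -0.079 and that of the 9 genes to -1.41 and -1.33. With the replicate block the count stayed at 8 lower and 1 higher, *Hmgcs1* was at -2.22 and *Ggps1* at 0.89 with VLDL-sized particles, and the block changed no call of a member; calls over all genes went from 4500 to 6058 and from 3249 to 4949. When 1 library was left out, *Hmgcs1* ranged from -2.32 to -2.08, *Pmvk* from -0.88 to -0.68 and *Ggps1* from 0.84 to 0.98 with VLDL-sized particles, and from -2.18 to -1.89, -0.83 to -0.63 and 0.70 to 0.84 with CHYL-sized ones. Without replicate 3 of all groups the median of the 9 genes was -1.56 and -1.44.

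Between VLDL-sized and CHYL-sized particles no gene was called, and without replicate 3 of all groups 1 gene was lower (*Fdft1*, -0.29). Small differences turned in sign when 1 library was left out (VLDL-sized replicate 1, 2 or 3 or CHYL-sized replicate 1, 2 or 3), over ranges of -0.16 to 0.02 for *Mvk*, -0.17 to 0.08 for *Pmvk*, -0.26 to 0.03 for *Mvd*, -0.27 to 0.09 for *Idi1* and -0.07 to 0.09 for *Fdps*, none past the threshold; the cause was not tested. The number of all genes called there was 0 under limma-voom, edgeR, limma-trend and both other scalings, 24 under DESeq2, 147 with the replicate block, 1 without VLDL-sized replicate 3, 1 without CHYL-sized replicate 2, 0 without each of the other treated libraries and 257 without replicate 3 of all groups.

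With the union of exons as length, control levels per kilobase were 103.6 for *Fdps*, 100.7 for *Idi1*, 66.0 for *Hmgcs1*, 45.9 for *Acat2*, 29.1 for *Fdft1*, 25.1 for *Pmvk*, 12.6 for *Mvk* and 3.45 for *Ggps1*, so that *Fdft1* and *Pmvk* changed places.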
